A study of Mus musculus with 24 samples.

Results

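Aquaporins and vasopressin receptors are the genes of water handling in the kidney, and 8 of them were followed here through kidney RNA of mice after myocardial infarction (MI). The 8 genes were given by name and not by a rule on their values, although earlier results of these data were known. They are the water channels Aqp1, Aqp2 and Aqp4, the aquaglyceroporins Aqp3 and Aqp7, the unorthodox aquaporin Aqp11 and the vasopressin receptors Avpr2 and Avpr1a. All 8 were found among the 56941 gene identifiers of the count table, of which 30116 had a count and 12780 passed the count filter. Of the 8 genes, 7 passed the filter and Avpr2 did not.

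The study asked how the kidney transcriptome changes after an infarct. Kidneys came from adult male C57BL/6 J wild-type mice, either after permanent tying of a main coronary artery (LAD ligation), a model of MI, or after a sham operation without ligation. Of the kidneys used here, 8 were from sham mice, 8 were taken 5d and 6 were taken 28d after MI. The sham mice gave their kidneys 5d after the operation and are the controls for both times, so at 28d the effect of MI and that of the longer time since surgery cannot be told apart, and the comparisons with sham share their controls. The whole kidney tissue was labelled only as kidney, with no cortex or medulla named, and each sample is from a mouse of its own.

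Water crosses cell membranes through aquaporins. In the proximal tubule and the thin descending limb of the nephron, AQP1 is always in place, whereas in the principal cells of the collecting duct the hormone vasopressin decides how much water is taken back. Vasopressin binds the V2 receptor (Avpr2), cAMP rises, AQP2 is carried in vesicles to the urine side of the cell and its gene is transcribed more, and the water leaves the cell on the blood side through AQP3 and AQP4. The V1a receptor (Avpr1a) signals through Gq and calcium, in vessels, in the collecting duct and also in the adrenal cortex.

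Levels are 3′ tag counts scaled to a common library total (CPM). Tags come from the 3′ ends of mRNA, so they were not divided by gene length. The libraries carried unique molecular identifiers, but the methods do not state whether copies of the same molecule were merged before counting. Total counts per kidney lay between 2280618 and 3786275. A count of 0 in a kidney allows up to 3 counts, or between 0.809 and 1.33 CPM depending on the kidney, and this limit covers counting error only. Tags of red blood cells moved with the groups: the summed level of 5 erythroid markers was 2200 to 4124 CPM in sham kidneys, 4968 to 19089 CPM at 5d post-MI and 1795 to 5122 CPM at 28d post-MI (5d against sham, 2.80 times, exact permutation test, adjusted p = 0.00606 over 39 tests; 28d against 5d, 0.290 times, adjusted p = 0.039). Sham replicates 2 and 6 held adrenal cortex tags, with 724 and 545 CPM summed over 4 markers, and replicate 5 at 5d post-MI held 65.8 CPM, while the other kidneys held at most 3.96 CPM. The lists of 7 nephron segments or cells and of endothelium had tags in every kidney. Erythroid levels of sham and 5d kidneys did not overlap, so as a covariate these markers cannot be parted from the group. Fold changes of 5d kidneys fitted with them are extrapolations and not corrected effects.

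Promoter sequences are shown for Aqp2 and Aqp1, the 2 most abundant of these genes. The Aqp2 window was chosen because it holds the letters through which cAMP signalling is known to act. The Aqp1 window was added because the levels of both genes had a Pearson's r of 0.82 between kidneys at 5d post-MI. That r had no test of its own, and over all kidneys the pair did not pass (r = 0.68, permutation test, adjusted p = 0.101). Both windows run from 250 bases before to 50 bases after the RefSeq transcription start on GRCm38.p6, and both genes lie on the plus strand (chr15:99578806-99579105 for Aqp2 and chr6:55336049-55336348 for Aqp1). Capitals mark, in Aqp2, the cAMP response element core (TGACGT, here on the minus strand, at position −212 from the start) and a GATA motif (AGATAA, also on the minus strand, at position −202), and in Aqp1 a GC box (GGGCGG, at position −190).
Aqp2: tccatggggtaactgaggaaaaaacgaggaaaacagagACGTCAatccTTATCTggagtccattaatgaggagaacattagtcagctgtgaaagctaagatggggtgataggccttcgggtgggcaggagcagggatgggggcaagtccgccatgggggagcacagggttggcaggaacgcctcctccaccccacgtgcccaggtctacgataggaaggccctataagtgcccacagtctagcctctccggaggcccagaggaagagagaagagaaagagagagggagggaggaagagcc
Aqp1: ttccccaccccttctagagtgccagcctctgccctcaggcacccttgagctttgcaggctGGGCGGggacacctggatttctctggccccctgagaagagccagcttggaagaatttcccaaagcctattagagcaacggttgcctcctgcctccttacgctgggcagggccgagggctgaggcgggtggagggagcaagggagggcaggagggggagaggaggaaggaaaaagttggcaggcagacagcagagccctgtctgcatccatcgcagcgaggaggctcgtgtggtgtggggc
Both strands were searched and the marked motifs do not overlap. Of 32851 RefSeq promoter windows of this length, 7.51% hold the cAMP response element core, 11.2% the GATA motif and 35.7% the GC box. Among the 7 members whose windows were searched, the cAMP response element core was found only in that of Aqp2, and such a match is a description of the sequence and not of binding.

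In GENCODE M21 (GRCm38) Aqp2 spans chr15:99579055-99584547 in 4 exon blocks and is followed on the same strand by Aqp5, 6234 bases away, and then Aqp6, a further 6570 bases away. Aqp1 spans chr6:55336432-55348555. Aqp7 (chr4:41033074-41048139) and Aqp3 (chr4:41092722-41098183) lie 44582 bases apart on the minus strand of chromosome 4. Aqp11 lies at chr7:97724006-97738289, Avpr1a at chr10:122448499-122453452 and Avpr2 at chrX:73892102-73895502. These are protein-coding genes, and each value below is for the whole gene.

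In sham kidneys the members fell into steps of level. Aqp2 (487 ± 97.1 CPM, SD, n = 8) and Aqp1 (466 ± 40.4 CPM) stood at the top, at ranks 187 and 206 among all counted genes, and could not be ordered: Aqp2 was the higher in 5 of 8 sham kidneys, 3 of 8 kidneys at 5d and 1 of 6 at 28d post-MI. Aqp3 (94.4 ± 9.57 CPM) followed, then Aqp11 (63.5 ± 10.3 CPM), each with a sham range apart from its neighbours. Aqp7 (20.9 ± 2.58 CPM) and Aqp4 (20.5 ± 4.10 CPM) overlapped, with Aqp7 the higher in 4 of 8 sham kidneys. Avpr1a (4.10 ± 2.31 CPM) lay below all aquaporins in every sham kidney, and Avpr2 was close to 0. The order of these steps was the same in all 3 groups, although at 5d post-MI the ranges of Aqp3 and Aqp11, and of Aqp4 and Avpr1a, came to overlap.

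**Figure D1:**
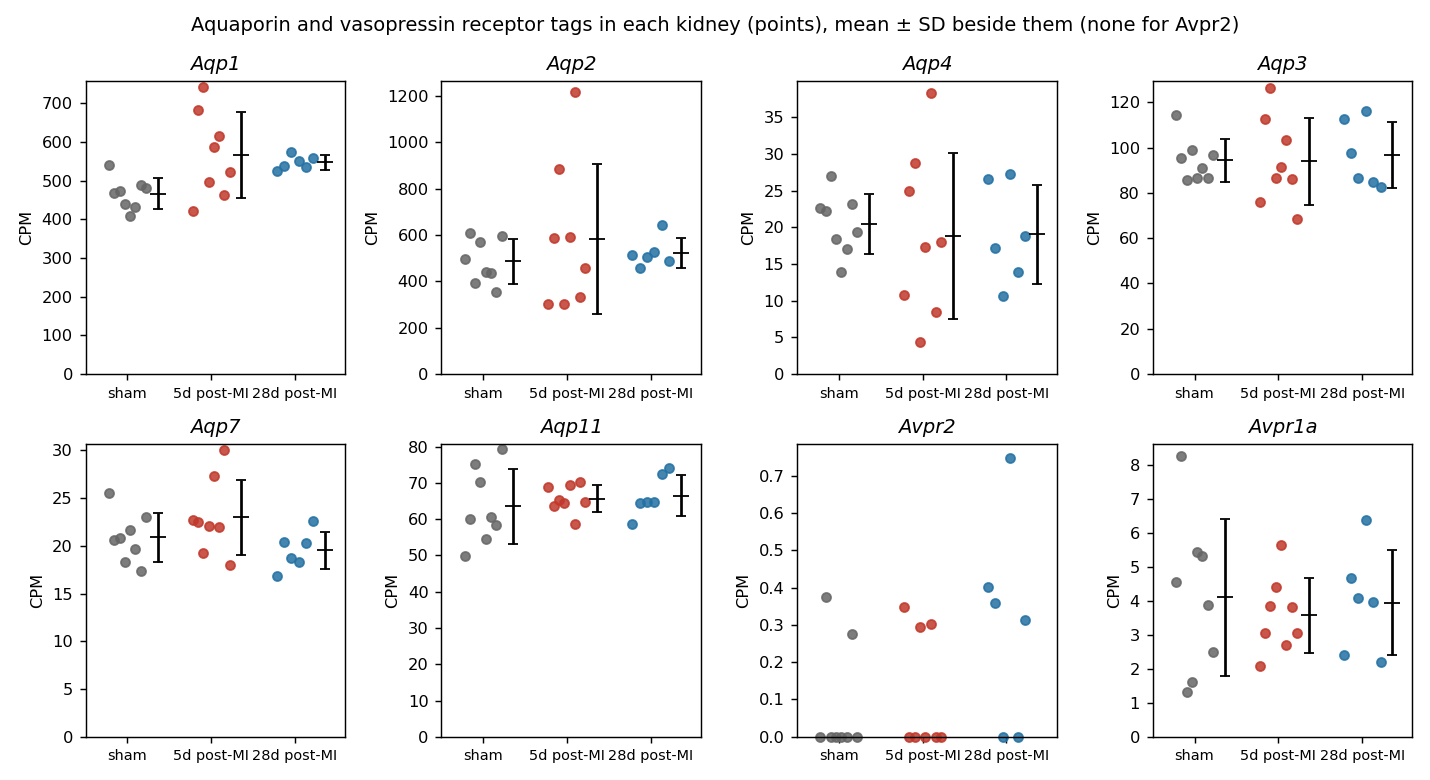
Level of each gene in CPM (y axis, from 0) in every kidney (points), by group (x axis), with the group mean and SD beside the points, except for Avpr2, where most kidneys have no tag. Aqp1 at 28d post-MI forms a tight band at 525 to 575 CPM, whereas Aqp2 at 5d post-MI runs from 301 to 1218 CPM.

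No member passed the test in any of the 3 comparisons. By edgeR's quasi-likelihood test with Benjamini-Hochberg adjustment over all 12780 genes, 0 of 7 tested members were called at 5d post-MI against sham, where 0.0704% of all genes were called (9 genes), 0 of 7 at 28d post-MI against sham, where 0.0235% were called (3 genes), and 0 of 7 at 28d against 5d post-MI, where 0.415% were called (53 genes). At an unadjusted p under 0.05, 1 of 7 members passed at 5d and 1 of 7 at 28d post-MI against sham, Aqp1 both times, and 0 of 7 at 28d against 5d, beside 7.90%, 8.68% and 9.05% of all genes. Limma's voom on the same kidneys also called 0 members in each comparison, and so did DESeq2, which at 28d against sham gave an adjusted p to 2090 genes only and none to Aqp4, Aqp7, Aqp11 and Avpr1a. No member had groups without overlap, as 0.0548%, 0.258% and 0.344% of all genes had in the 3 comparisons.

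Aqp1, the constitutive water channel of the proximal tubule and thin descending limb, came closest. The lowest, median and highest Aqp1 levels were 408, 471 and 540 CPM in sham kidneys, 422, 555 and 741 CPM at 5d post-MI and 525, 544 and 575 CPM at 28d post-MI. All 6 kidneys at 28d and 6 of 8 kidneys at 5d post-MI lay above the sham mean, and 3 and 4 of them above every sham kidney, with the highest sham kidney, replicate 1, inside both other ranges. The log2 fold change was 0.28 (SE 0.09, 95% confidence interval 0.09 to 0.47) at 5d post-MI, with an adjusted p of 0.431 by edgeR. At 28d post-MI it was 0.23 (SE 0.10, interval 0.03 to 0.44), with an adjusted p of 0.521 by edgeR, and the times differed by a log2 of −0.05 (interval −0.25 to 0.15). In bulk tissue, a change in the number of cells of a type and one in the RNA of each cell cannot be told apart.

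The call on Aqp1 at 28d depended on which kidneys shared the estimate of spread. With only the sham and 28d kidneys in the fit the log2 fold change was again 0.23, its SE fell to 0.052 and Aqp1 passed edgeR's test (adjusted p = 0.0405), at place 26 of 31 genes called among 12266 (0.253%). DESeq2 with the same 14 kidneys gave 0.23 and an adjusted p of 0.00688. When each of these 14 kidneys was left out of the edgeR fit in turn, Aqp1 was called in 2 of 14 fits, with log2 fold changes of 0.20 to 0.26 and adjusted p-values of 0.00907 to 0.138. The SD of Aqp1 between kidneys at 5d post-MI, which the fit of all groups includes, was 110 CPM, against 40.4 CPM in sham and 18.3 CPM at 28d post-MI.

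Marker lists of nephron segments are given beside Aqp1, and none of their genes was called at 5d post-MI. All 6 thick ascending limb markers (the segment of Umod and Slc12a1) had higher fitted levels at 5d (median log2 fold change 0.20, 0 called), while 4 of 5 tested early proximal tubule markers were lower, with a median of −0.14. All 4 tested thin limb markers were higher (median 0.10) and all 6 endothelial markers lower (median −0.18). At 28d against sham all 6 thick ascending limb markers were again higher (median 0.12, 0 called). Of the other tested markers there, 3 of 5 early proximal tubule, 1 of 4 thin limb and 2 of 6 endothelial ones were higher. The thick ascending limb markers summed to 1774 to 3013 CPM in sham kidneys, 2362 to 3176 CPM at 5d and 2167 to 2836 CPM at 28d post-MI, and the early proximal tubule markers to 5921 to 7353, 4872 to 6713 and 6156 to 7249 CPM. By exact permutation of the sums at 5d against sham, adjusted over 39 tests, p was 0.342 for the thick ascending limb, 0.216 for the early proximal tubule, 0.732 for the thin limb and 0.302 for endothelium. With the mean log2 CPM of the thick ascending limb markers as a covariate the Aqp1 log2 fold change at 5d was 0.15, and with that of the erythroid markers it was 0.17. Between kidneys, with group means removed, Aqp1 and the erythroid markers had r = 0.27 (permutation p = 0.356, adjusted p = 0.654). For Aqp1 and the endothelial markers r was 0.35 (permutation p = 0.263, adjusted p = 0.532). Whether blood or vessel RNA added to the Aqp1 level was not tested. With the white adipocyte markers as a covariate the 28d value was 0.15. Over all 15 alternative settings, apart from leaving out single kidneys, the 28d value ran from 0.14 to 0.27. With the early proximal tubule and thin limb covariates the 5d value was 0.21 and 0.24. Late proximal tubule markers summed to 1825 to 2451 CPM in sham kidneys, 1099 to 2532 at 5d and 2313 to 2601 at 28d. Their sum was 0.964 times that of sham at 5d (exact permutation, adjusted p = 0.78). At 28d it was 1.15 times (exact permutation p = 0.00699, adjusted p = 0.0909), and all 5 genes were higher (median 0.17, 0 called).

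Aqp2, the vasopressin-regulated water channel of principal cells, did not pass the test and was widely scattered at 5d post-MI. Its lowest, median and highest levels were 353, 468 and 611 CPM in sham kidneys, 301, 523 and 1218 CPM at 5d post-MI and 456, 510 and 642 CPM at 28d post-MI. At 5d post-MI 2 kidneys (replicates 3 and 7, with 885 and 1218 CPM) lay above every sham kidney and 3 (replicates 1, 5 and 8, with 301, 303 and 331 CPM) lay under the whole sham range. The log2 fold change was 0.26 (SE 0.25, interval −0.26 to 0.78, adjusted p = 0.866 by edgeR) at 5d and 0.10 (SE 0.27, interval −0.46 to 0.66, adjusted p = 0.963) at 28d post-MI. Without replicate 7 the 5d value was 0.02, and 28d against 5d went from −0.16 to 0.08. At 5d replicates 6 and 7 had the 2 highest erythroid sums (19089 and 13222 CPM), with Aqp2 at 591 and 1218 CPM. Replicate 3, with the second highest Aqp2 level, had an erythroid sum of 6662 CPM, lower than all but replicate 1. Over all kidneys, with group means removed, Aqp2 and the mean log2 CPM of the erythroid markers had r = 0.32 (permutation p = 0.279, adjusted p = 0.54). Within groups r was 0.49 at 5d, −0.10 in sham and −0.18 at 28d post-MI. With the erythroid markers as a covariate the 5d value was −0.15, and a cause was not tested.

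Aqp4, a water exit channel of principal cells and better known from brain astrocytes, was found at far lower levels than Aqp2. It reached 13.9, 20.8 and 27.0 CPM as lowest, median and highest in sham kidneys, 4.41, 17.7 and 38.2 CPM at 5d post-MI and 10.6, 18.0 and 27.3 CPM at 28d post-MI. The same 2 kidneys at 5d post-MI that were highest in Aqp2, replicates 7 and 3, were the only 2 above every sham kidney in Aqp4, and the same 3, replicates 1, 5 and 8, were under the whole sham range. The log2 fold changes were −0.09 (SE 0.31, interval −0.73 to 0.55) at 5d and −0.09 (SE 0.34, interval −0.80 to 0.61) at 28d post-MI, with adjusted p-values of 0.971 and 0.975 by edgeR. The 5d value was −0.33 without replicate 7, 0.07 without replicate 5, 0.0037 without replicate 8 and −0.46 with the erythroid markers as a covariate, and the 28d value was 0.02 without replicate 3 of 28d.

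**Figure D2:**
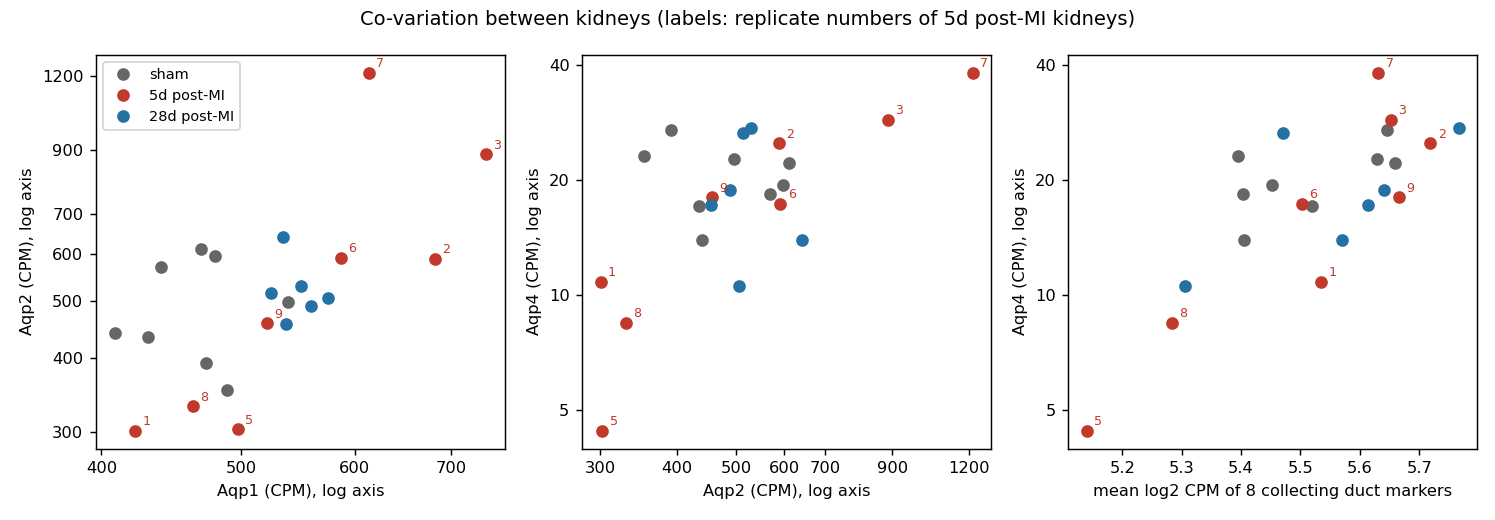
Aqp2 against Aqp1, Aqp4 against Aqp2 (all in CPM on log axes) and Aqp4 against the mean log2 CPM of 8 collecting duct principal cell markers, with 1 point for each of 22 kidneys coloured by group and the replicate numbers of the 5d post-MI kidneys beside their points. Among the 5d kidneys, replicates 3 and 7 are at the upper right and replicates 1, 5 and 8 at the lower left of the Aqp2 and Aqp4 plot.

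Across the 22 kidneys, with group means removed, the Aqp1, Aqp2, Aqp4 and Aqp3 levels tended to go together, but no pair of members passed a permutation test adjusted over the 21 pairs. For Aqp2 and Aqp4 Pearson's r was 0.70 (p = 0.00811, adjusted p = 0.0852, permutation within groups) and Spearman's rho 0.48 (p = 0.0549, adjusted p = 0.192), and r was 0.54 without replicates 3 and 7 of 5d post-MI. Within groups r was 0.91 at 5d post-MI, −0.17 in sham and −0.15 at 28d post-MI. For Aqp1 and Aqp2 r was 0.68 (p = 0.0193, adjusted p = 0.101) and rho 0.60 (p = 0.0183, adjusted p = 0.125), again with r = 0.82 at 5d post-MI against 0.04 in sham and −0.24 at 28d post-MI, and 0.52 without replicates 1 and 3 of 5d post-MI. For Aqp1 and Aqp3 r was 0.67 (p = 0.00512, adjusted p = 0.0852) and rho 0.50 (p = 0.0352, adjusted p = 0.148), with 0.49 without the same 2 kidneys. Its r was 0.85 at 5d post-MI, 0.60 in sham and −0.46 at 28d post-MI. Aqp1 and Aqp4 had the lowest rank p of the 21 pairs (rho = 0.67, p = 0.00564, adjusted p = 0.107), with r = 0.65 (p = 0.0193, adjusted p = 0.101), 0.62 without the same 2 kidneys, and r of 0.74 at 5d post-MI, 0.76 in sham and −0.53 at 28d post-MI. Aqp2 and Aqp3 had r = 0.56 (p = 0.0347, adjusted p = 0.145) and rho = 0.57 (p = 0.0102, adjusted p = 0.107), with 0.68 at 5d post-MI, 0.58 in sham and −0.18 at 28d post-MI, and 0.43 without replicates 3 and 7 of 5d post-MI. For Aqp4 and Aqp3 r was 0.54 (p = 0.0415, adjusted p = 0.145) and rho 0.54 (p = 0.0239, adjusted p = 0.125), with 0.54 at 5d post-MI, 0.11 in sham and 0.81 at 28d post-MI, and 0.61 without replicates 5 and 7 of 5d post-MI. The differences between groups in r were not tested. Aqp7, Aqp11 and Avpr1a had no correlation with another member at an unadjusted p under 0.05.

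Aqp4 was also set against the other principal cell genes. Its r with the mean log2 CPM of 8 collecting duct markers, which include the sodium channel subunits Scnn1b and Scnn1g and the glucocorticoid-inactivating enzyme Hsd11b2, was 0.79 (p = 0.00022, adjusted p = 0.02 over 91 relations of a member with a marker list, permutation test). The r was positive in each group, at 0.60 in sham, 0.90 at 5d and 0.63 at 28d post-MI, and 0.71 without replicates 5 and 7 of 5d post-MI. The rank correlation was 0.69 (p = 0.00162) and missed the adjusted threshold (adjusted p = 0.0933). It was the only one of the 91 relations that passed by r, and none passed by rank. By rank, Aqp4 with the thick ascending limb markers came next (rho = 0.66, p = 0.00205, adjusted p = 0.0933; r = 0.48, p = 0.0221, adjusted p = 0.22; r = 0.58 without replicates 5 and 7 of 5d post-MI), and by r Aqp1 with the thick ascending limb markers (r = 0.61, p = 0.00201, adjusted p = 0.0915; rho = 0.62, p = 0.00323, adjusted p = 0.098; r = 0.61 without replicates 1 and 3 of 5d post-MI). The summed level of these collecting duct markers was 1.04 times that of sham at 5d (exact permutation p = 0.39, adjusted p = 0.651) and 1.07 times at 28d post-MI (exact permutation p = 0.0406, adjusted p = 0.216).

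The spread between kidneys was described by the SD of log2 CPM, a comparison added after the values had been seen. From sham to 5d post-MI the SD went from 0.12 to 0.28 for Aqp1, from 0.29 to 0.74 for Aqp2, from 0.29 to 0.97 for Aqp4 and from 0.14 to 0.29 for Aqp3, and the opposite way for Aqp11, from 0.23 to 0.083, and Avpr1a, from 0.75 to 0.37. By limma's test on absolute deviations from the group mean, none of these passed (lowest adjusted p = 0.527, for Aqp4), as 0.00782% of all genes did (1 gene). Among all tested genes the ratio of the 5d to the sham SD stood at percentile 99.3 for Aqp4, 97.5 for Aqp2, 95.5 for Aqp1 and 0.767 for Aqp11. At 28d post-MI the SD of Aqp1 (0.048) and Aqp2 (0.17) was lower than at 5d (limma, adjusted p = 0.285 and 0.288).

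**Figure D3:**
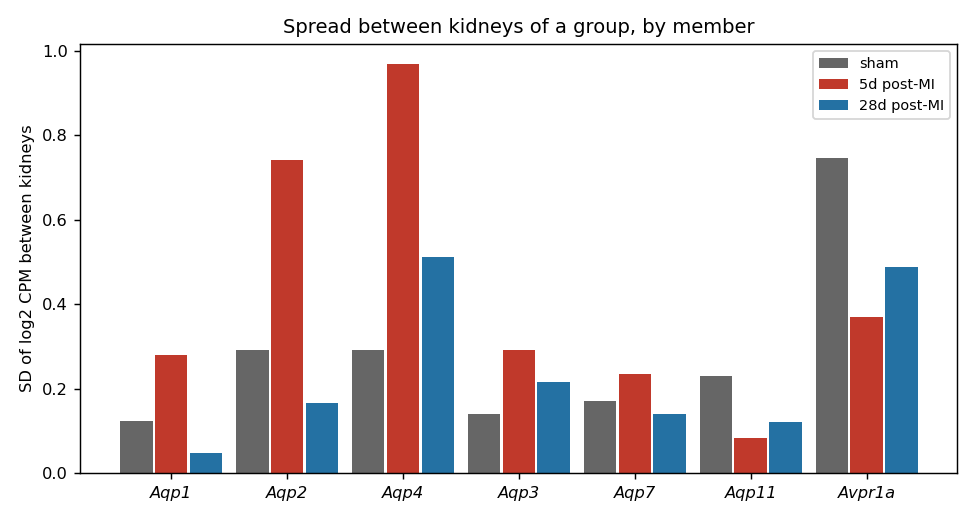
SD of log2 CPM between the kidneys of a group (y axis, from 0) for each tested member (x axis) in sham (n = 8), 5d post-MI (n = 8) and 28d post-MI (n = 6). The bars of Aqp2 and Aqp4 at 5d post-MI (0.74 and 0.97) stand above the other groups of the same gene, and those of Aqp11 and Avpr1a below sham.

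The aquaglyceroporins, which pass glycerol as well as water, had small fold changes at both times. Aqp3, the main exit channel of principal cells, measured 85.8, 93.2 and 114 CPM as lowest, median and highest in sham kidneys, 68.4, 88.9 and 126 CPM at 5d post-MI and 82.4, 92.2 and 116 CPM at 28d post-MI. Its groups overlapped, with 1 kidney above and 2 below every sham kidney at each time. The log2 fold changes were −0.01 (interval −0.23 to 0.21) at 5d and 0.03 (interval −0.21 to 0.27) at 28d post-MI, with adjusted p-values of 0.992 and 0.978 by edgeR.

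Aqp7, the glycerol channel of the last part of the proximal tubule and of adipocytes, measured 17.4, 20.7 and 25.5 CPM in sham kidneys, 18.0, 22.3 and 30.0 CPM at 5d post-MI and 16.9, 19.5 and 22.6 CPM at 28d post-MI (lowest, median and highest). All 6 kidneys at 28d lay below the 5d mean, and 1 below every kidney at 5d. Its log2 fold change was 0.12 (interval −0.08 to 0.33, adjusted p = 0.83 by edgeR) at 5d against sham, −0.09 (interval −0.32 to 0.14, adjusted p = 0.895) at 28d against sham and −0.21 (interval −0.45 to 0.02, adjusted p = 0.606) at 28d against 5d. The summed white adipocyte markers ran from 389 to 1966 CPM in sham, 194 to 1438 CPM at 5d and 381 to 987 CPM at 28d post-MI (28d against sham, 0.485 times, exact permutation p = 0.0196, adjusted p = 0.153), and as a covariate they left Aqp7 not called. Between kidneys, with group means removed, Aqp7 and the mean log2 CPM of these markers had r = −0.011 (permutation p = 0.967, adjusted p = 0.989) and rho = 0.059 (p = 0.808, adjusted p = 0.933).

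Aqp11, an aquaporin of the endoplasmic reticulum in proximal tubule cells, was the least variable member at 5d post-MI. Its lowest, median and highest levels were 49.9, 60.4 and 79.3 CPM in sham kidneys, 58.7, 65.0 and 70.2 CPM at 5d and 58.7, 64.7 and 74.0 CPM at 28d post-MI. Every kidney after MI lay inside the sham range. The log2 fold changes were 0.04 (interval −0.11 to 0.20) at 5d and 0.07 (interval −0.10 to 0.24) at 28d post-MI, with adjusted p-values of 0.937 and 0.888 by edgeR. These are the narrowest intervals among the members.

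**Figure D4:**
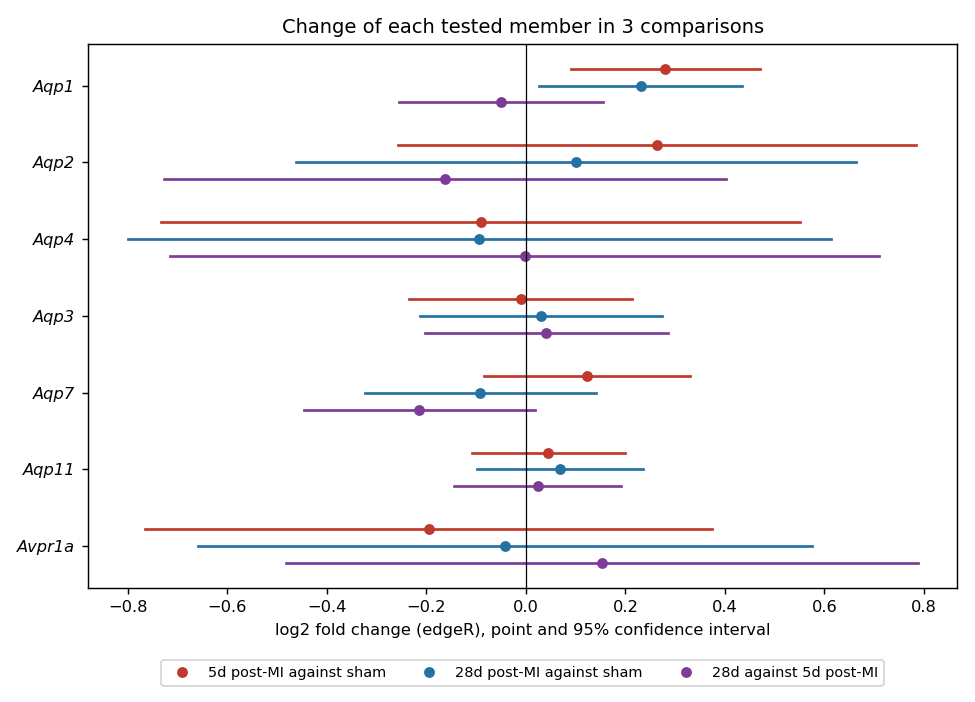
The log2 fold change of each tested member by edgeR (x axis, points) with its 95% confidence interval (lines) in the 3 comparisons (colours). The Aqp1 intervals against sham lie above 0 before adjustment (0.09 to 0.47 at 5d), and all other intervals include 0.

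Of the receptors, Avpr2, which carries the vasopressin signal to AQP2, was at the floor of detection. It had 2 counts over all sham kidneys, 3 over those at 5d and 5 over those at 28d post-MI, in 2 of 8, 3 of 8 and 4 of 6 kidneys, and at most 0.748 CPM. Since every kidney was under the limit that a count of 0 allows, no difference was detectable at this depth (exact permutation tests of mean CPM, two-sided, p = 0.785 at 5d, 0.0696 at 28d against sham and 0.0956 at 28d against 5d). Avpr2 lies on the opposite strand within the range of Arhgap4, whose exons cover 81.3% of its exonic bases and which itself had 18 counts in all 22 kidneys. L1cam, with 1222 counts, also spans Avpr2 on the opposite strand, without shared exonic bases. The strand setting of the counting is not given in the sources used here, so the few Avpr2 tags cannot be assigned to it with certainty. Tags of Avpr2 may also have gone uncounted, so its low counts need not mean low expression.

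Avpr1a, the V1a receptor, was low but present in every kidney. Its counts summed to 100 in sham kidneys, 83 at 5d and 63 at 28d post-MI. The lowest, median and highest levels were 1.33, 4.20 and 8.26 CPM in sham kidneys, 2.09, 3.43 and 5.63 CPM at 5d and 2.19, 4.02 and 6.36 CPM at 28d post-MI. Both later groups lay inside the sham range. The log2 fold changes were −0.19 (interval −0.76 to 0.37, adjusted p = 0.922 by edgeR) at 5d and −0.04 (interval −0.66 to 0.58, adjusted p = 0.991) at 28d post-MI. The highest sham kidney, replicate 2, also held the most adrenal cortex tags. Sham replicate 6, the other with such tags, had 5.31 CPM, and sham replicate 5, with 2.03 CPM of them, had 5.42 CPM. Over all kidneys, with group means removed, Avpr1a and the adrenal cortex markers had r = 0.53 (permutation p = 0.0509, adjusted p = 0.29) and rho = 0.33 (p = 0.141, adjusted p = 0.411). Without both sham kidneys that held such tags the log2 fold changes against sham were 0.12 and 0.27. With the erythroid markers as a covariate they were −0.94 (SE 0.42, adjusted p = 0.998) and 0.18, and 28d against 5d was 1.12 (SE 0.52, adjusted p = 0.801) in place of 0.15. Erythroid levels of sham and 5d kidneys did not overlap, so the values of 5d kidneys with this covariate are extrapolations.

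The other genes of vasopressin and water handling were taken from 7 lists with 80 genes, of which 67 were tested. None was called in any comparison. At an unadjusted p under 0.05, 7 were higher and 3 lower at 5d post-MI against sham (14.9% of 67, beside 7.90% of all genes), 4 higher and 2 lower at 28d (8.96%, beside 8.68%), and 1 higher and 3 lower at 28d against 5d (5.97%, beside 9.05%). The median log2 fold change over the 67 genes was 0.04 at 5d and 0.01 at 28d against sham, where that of all genes was 0.00018 and −0.0012.

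Among the other aquaporins, receptors and ligands, only Aqp6 and Lnpep of 11 genes passed the filter. Aqp6, an anion-permeable aquaporin of intercalated cell vesicles and a chromosomal neighbour of Aqp2, measured 55.2 ± 10.3 CPM in sham, 63.8 ± 8.42 CPM at 5d and 58.2 ± 5.93 CPM at 28d post-MI (SD), with a log2 fold change of 0.22 at 5d (SE 0.10, adjusted p = 0.59 by edgeR). Lnpep, the aminopeptidase that degrades vasopressin, measured 54.0 ± 3.38, 54.4 ± 4.41 and 52.2 ± 5.47 CPM. Aqp5, the gene between Aqp2 and Aqp6, was at 0.588 to 5.42 CPM, and no tag of Avpr1b was found in any of the 22 kidneys.

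In the V2 receptor cAMP list, 10 of 16 tested genes were higher at 5d (median log2 fold change 0.07, 0 called). The ends of the list at 5d were Crem, a cAMP-responsive transcription factor (0.31, SE 0.12, adjusted p = 0.514 by edgeR), and the phosphodiesterase Pde4a (−0.14). Crem measured 9.73, 15.3 and 18.0 CPM as lowest, median and highest in sham kidneys, 12.9, 19.3 and 22.9 CPM at 5d and 11.3, 13.3 and 17.5 CPM at 28d post-MI, and 28d against 5d was −0.42 (SE 0.14, adjusted p = 0.25). At 28d against sham the ends were Adcy6, the adenylyl cyclase that acts behind the V2 receptor (0.44, SE 0.21, adjusted p = 0.554), and the anchoring protein Akap7 (−0.13).

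In the list of AQP2 vesicle trafficking, 10 of 19 tested genes were higher at 5d post-MI and 0 were called. Nedd4l, a ubiquitin ligase of the collecting duct known for its action on the sodium channel, had the lowest adjusted p of all 67 genes. It measured 53.6, 59.9 and 66.3 CPM in sham kidneys, 59.4, 72.3 and 78.7 CPM at 5d and 58.3, 62.9 and 68.0 CPM at 28d post-MI (lowest, median and highest), with a log2 fold change of 0.25 at 5d (SE 0.06, adjusted p = 0.12 by edgeR). Its sham and 5d ranges overlapped. At 28d against sham the highest of the list was Hspa8, the chaperone that takes part in AQP2 endocytosis (0.49, SE 0.17, adjusted p = 0.401), and the lowest, at both times, was Sipa1, a regulator of the small GTPase Rap (−0.27 and −0.37).

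Of 10 regulators of Aqp2 transcription, 7 were higher at 5d and 3 at 28d post-MI against sham, with 0 called. The lowest at both times was Pparg, also the defining transcription factor of adipocytes, at −0.70 (SE 0.29, adjusted p = 0.564 by edgeR) and −0.78 (SE 0.33, adjusted p = 0.501). All 6 tested white adipocyte markers were lower at both times as well, with medians of −0.50 and −0.94 and 0 called. The highest was Nr1h4, the farnesoid X receptor, at 5d (0.26) and the epithelial factor Elf3 at 28d (0.19).

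Of the 8 tested genes of medullary urea transport and osmolytes, 4 were higher at 5d and 2 at 28d post-MI against sham, with 0 called. The lowest at both times was Akr1b3, the aldose reductase that makes sorbitol (−0.34 and −0.42), and the highest at 5d was Gdpd5, an enzyme that breaks down the osmolyte glycerophosphocholine (0.30), while at 28d it was the taurine transporter Slc6a6 (0.13). Akr1b3 was spread at 5d post-MI as Aqp2 and Aqp4 were, from 14.1 to 146 CPM against 42.8 to 121 CPM in sham kidneys. Among 8 genes of V1a receptor Gq signalling 4 were higher at 5d, between the phospholipase Plcb1 (−0.11) and the calcium release channel Itpr3 (0.29), and 0 were called. Among 5 genes of glycerol handling 2 were higher at both times, with the glycerol kinase Gk the highest (0.08 at 5d, 0.15 at 28d) and the glycerol-3-phosphate dehydrogenases Gpd2 (−0.27 at 5d) and Gpd1 (−0.36 at 28d) the lowest.

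**Figure D5:**
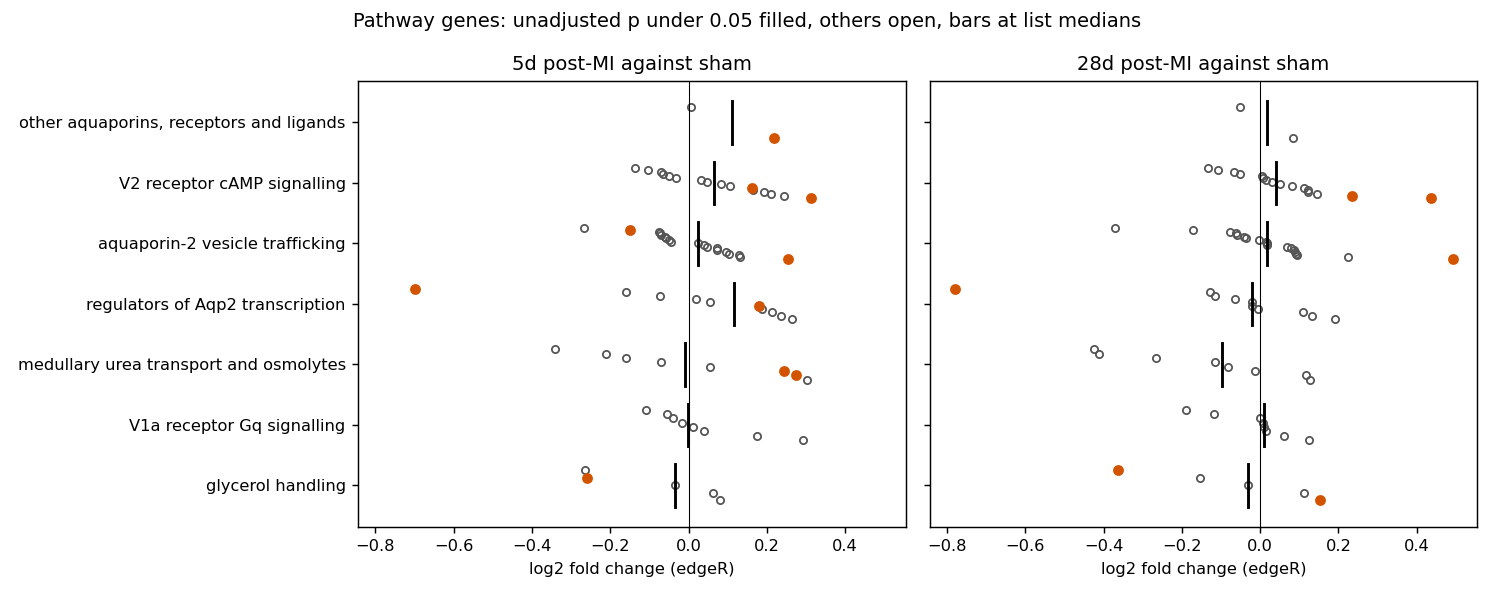
The log2 fold change by edgeR (x axis) of each tested gene in the 7 pathway lists (rows) at 5d and 28d post-MI against sham, with genes at an unadjusted p under 0.05 filled, others open and the list median as a bar. No gene passes after adjustment, and Pparg is the lowest point in both panels (−0.70 and −0.78).

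The genes with the most similar pattern across the 22 kidneys (Pearson's r of log2 CPM with group means removed, over 12779 genes, given with no test) were as follows. Aqp2 was most like Rora (r = 0.81), Srgap3 (0.80) and Cryab (0.77), and Aqp4 most like Bcam (0.85), Cpne2 (0.84) and Litaf (0.82). Aqp1 was most like Bptf (0.79), Rpl21 (0.79) and Pibf1 (0.76), and Aqp3 most like Pink1 (0.78), Thap11 (0.77) and Thap3 (0.77). Aqp7 was most like Tamm41 (0.77), Sim1 (0.75) and Mapkbp1 (0.74), Aqp11 most like Smim24 (0.79), Selenbp2 (0.79) and Sord (0.74), and Avpr1a most like Plce1 (0.78), Tesc (0.74) and Tmem223 (0.73). Among all these genes, Aqp4 stood at place 21 and Aqp1 at place 33 for likeness to Aqp2.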

How the data were processed

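Kidney RNA was sequenced by MACE (3′ ends, with unique molecular identifiers). Per the labels, reads were processed with cutadapt, FastQC, Bowtie2, HTSeq and DESeq2. The methods name the build mm10 and the labels' processing notes mm39. The authors deposited whole-number counts for each gene and kidney, not normalized. Of the 48 columns of per-sample values, 26 were not used: the authors' tpm columns, and a pair of count columns sharing 1 name that could not be assigned to a sample, which left 22 kidneys.

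Counts were filtered by filterByExpr (minimum count 10), normalized by TMM and fitted by edgeR 4.0.16 (R 4.3.3) with the robust quasi-likelihood F test over the 3 groups, two-sided, called at a Benjamini-Hochberg adjusted p under 0.05. The SE was taken from the log2 fold change and F. Log2 CPM for correlations used a prior count of 2, and CPM used the TMM-scaled total. DESeq2 1.42.0, limma 3.58.1, DESeq2 size factors, no filter, fewer groups in the fit, marker covariates, a replicate block and leaving out each kidney were the alternatives. Correlations were permuted 100000 times within groups (Python 3.11.15, scipy 1.17.1). Marker sums and Avpr2 were compared by exact permutation. The edgeR fit, and no other step, was tested on simulated data.

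The members, the gene lists and the tests were chosen with earlier results of these data known. Named genes are the members, the pathway genes that were called or had the lowest or highest log2 fold change of their list, and the 3 genes most correlated with each member. The levels of Aqp5 and Avpr1b, Akr1b3's range, the covariates thin limb, early proximal tubule and thick ascending limb, the fits with fewer kidneys and the test of spread were chosen after seeing the data. No 2 kidneys of a group differed by less than sampling noise (71 pairs). GENCODE M21 gave symbols for 51948 of the 56941 identifiers.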

Additional observations from a re-analysis of the deposited data

Results flagged for a closer look

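The Aqp3 level of sham replicate 1, 114 CPM, stood apart from the other sham kidneys, which lay between 85.8 and 99.0 CPM. Its distance to the next kidney was 0.541 of the range of the group, above the limit of Dixon's test for 8 samples. It was the only one among 21 groups of kidneys of a tested member, and chance alone flags about 1 in 20 groups. The same kidney had the highest Aqp1 level of the sham group, 540 CPM.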

How the results depend on the processing

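At 28d post-MI against sham, 1 member was called in place of 0 when the fit held the groups of the contrast only, by edgeR (Aqp1, log2 fold change 0.23) and by DESeq2 (1 member, Aqp1, 0.235). Under every other alternative and for each kidney left out, 0 members were called in all 3 comparisons, where DESeq2 with all groups gave no adjusted p to Aqp4, Aqp7, Aqp11 and Avpr1a at 28d against sham, and DESeq2 with 2 groups none to Aqp4, Aqp7 and Avpr1a. The alternatives chosen after seeing the data were the DESeq2 fit just named, the thin limb, early proximal tubule and thick ascending limb covariates and leaving out pairs of kidneys.

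The replicate numbers do not pair the kidneys: the deviations of kidneys with the same number correlated between −0.127 and 0.0899, and 1 of 8, 1 of 6 and 1 of 6 kidneys correlated best with its own number. With a replicate block 0 members were called and the calls over all genes were 2, 24 and 80, in place of 9, 3 and 53 (5d against sham, 28d against sham, 28d against 5d). With the replicate block Aqp3 turned to 0.0728, −0.0128 and −0.0856 in these comparisons and Aqp2 at 28d against sham to −0.029.

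Several small log2 fold changes, never called, turned in sign, and the cause was not tested. With the erythroid covariate these were Aqp2 (−0.151) and Aqp7 (−0.0153) at 5d against sham, Aqp4 (0.0237) and Avpr1a (0.182) at 28d against sham, and Aqp1 (0.100), Aqp2 (0.376), Aqp4 (0.488) and Aqp11 (−0.0653) at 28d against 5d. Without the 2 kidneys at 5d that were highest in erythroid tags, Aqp2 was −0.0269 at 5d against sham and 0.128 at 28d against 5d, and Aqp4 0.254. Without both sham kidneys with adrenal cortex tags Avpr1a was 0.118 at 5d and 0.268 at 28d against sham. With the white adipocyte covariate Aqp11 was −0.00538 at 5d and Aqp3 −0.0674 at 28d against sham. At 28d against sham, Aqp3 was −0.023, −0.00255 and −0.0529 with the early proximal tubule, thin limb and thick ascending limb covariates, Aqp2 −0.0255 with the first, and Avpr1a 0.0784 by limma's voom. Aqp4 at 28d against 5d (−0.0025) was 0.124, 0.0226 and 0.0916 with the same covariates, 0.203 by voom, 0.0158 by DESeq2, 0.0161 by DESeq2 with 2 groups and 0.00169 with DESeq2 size factors.

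Leaving out each kidney in turn, the values that crossed 0 ranged as follows. At 5d against sham Aqp4 ranged from −0.333 (without replicate 7) to 0.0723 (without replicate 5), Aqp3 from −0.0827 to 0.0468, Aqp11 from −0.00134 to 0.101 and Avpr1a from −0.33 to 0.00712 (without sham replicate 2). At 28d against sham Aqp4 ranged from −0.222 to 0.0221, Aqp3 from −0.0286 to 0.0767 and Avpr1a from −0.231 to 0.16. At 28d against 5d Aqp1 ranged from −0.102 to 0.0153, Aqp2 from −0.26 to 0.0813, Aqp4 from −0.166 to 0.24, Aqp3 from −0.0183 to 0.114, Aqp11 from −0.0159 to 0.0564 and Avpr1a from −0.036 to 0.288. Over all genes these fits called 1 to 38, 0 to 29 and 41 to 84 genes. Without a filter 80, 94 and 160 genes were called, by DESeq2 36, 30 and 91, and with the groups of the contrast only 2, 31 and 26. With the erythroid covariate, whose levels did not overlap between sham and 5d kidneys, 0, 3 and 0 genes were called. Avpr2 had 10 counts and Avpr1a 246 counts in all 22 kidneys.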
